A study of Mus musculus with 9 samples.

Results

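The genes described here are 10 markers of oligodendrocyte precursor cells: Cspg4, Sox10, Olig1, Olig2, Nkx2-2, Pcdh15, Lhfpl3, Sox6, Emid1 and Myt1. They were chosen by name, and every probe set whose platform symbol is one of these names was taken. This gave 10 of 18193 genes and 20 of 45037 probe sets that are no control. The series holds 9 Affymetrix mouse expression arrays in 3 groups of 3, all from C57BL/6 cells. Every culture grew without attachment in medium with FGF and EGF, each at 20 ng/ml. Wild-type neural stem cells (NSC) were third-ventricle cells from Nf1flox/flox pups at postnatal day 1 that had received a control LacZ virus. The Nf1-null NSC had the same source and genotype and had received a Cre virus, which cuts out floxed DNA. Nf1 encodes neurofibromin, an inhibitor of Ras. Glioma stem cells were grown from gliomas of the optic nerve of 3-month-old mice labelled Nf1+/-GFAP CKO, and the labels do not spell out that genotype further. Tumour origin, age, tissue, virus and genotype cannot be told apart in any comparison with the glioma stem cells. Independent cultures are named for the NSC alone. For the glioma stem cells separate tumours are not stated, so p-values there measure no more than the spread of these samples.

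Oligodendrocyte precursors arise from ventricular progenitors, divide in response to growth factors such as PDGF and FGF, and give rise to the myelinating oligodendrocytes of the brain and optic nerve. The basic helix-loop-helix factors Olig1 and Olig2 and the HMG-box factor Sox10 specify and maintain the lineage. Nkx2-2, Sox6 and the zinc-finger factor Myt1 act in the same precursors, and Cspg4 encodes NG2, the surface proteoglycan by which these cells are commonly recognised. Olig1 and Olig2 are neighbours on 1 chromosome, with 1 gene model and 0 coding genes between them in the RefSeq table.

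With 2% of probe sets trimmed at either end, the mean signal of every array was 1500, and array medians lay between 264.7 and 287.4. Nf1 signals ranged from 919.5 to 1139.5 on the wild-type arrays, from 430.3 to 646 on the Nf1-null arrays and from 549 to 623 on the glioma stem cell arrays. Whether its probe set lies within the floxed stretch is not known here. Of 10 neural stem cell genes Sox2, Fabp7 and Vim had signals of at least 28137 on all 9 arrays. Others were low in some groups, such as Sox1 at 111.4 to 391.9 and Nr2e1 at 201.7 to 321.1 on the glioma stem cell arrays, and Hes5 at 229.7 to 2853.3 on the Nf1-null arrays. None of the 10 was listed at 0 on any array. The ratio of 3' to 5' Actb signal, a measure of RNA quality, was 1.87 to 1.88 on the wild-type arrays, 1.49 to 1.67 on the Nf1-null arrays and 1.73 to 1.85 on the glioma stem cell arrays. In a bulk culture fewer cells of a type and less RNA per cell cannot be told apart.

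In Nf1-null NSC all 10 markers had a lower mean log2 signal than in wild-type NSC, by a median of -1.34 on the log2 scale, although Olig2 turned to 0.02 when the arrays were shifted to 1 median. Of all genes 55.5% were lower. Of the 10, 0 passed the test (limma, Benjamini-Hochberg adjusted p under 0.05 over all 18193 genes), where the share called over all genes was 0%. At an unadjusted p under 0.05 there were 6 of 10 members, against 16.8% of all genes. In glioma stem cells 9 of the 10 were higher than in Nf1-null NSC, with a median of 1.13, against 46.8% of all genes that were higher. Pcdh15 and Lhfpl3 rose, 2 of 10 beside 0.671% of all genes, and Emid1 fell, 1 of 10 beside 1.08%, which makes 3 of 10 called beside 1.75%. With arrays of the same number as a block, 1 of 10 was called, Emid1, beside 1.06% of all genes. Compared with wild-type NSC, the glioma stem cells had 6 members higher and 4 lower, with a median of 0.16, against 43.9% of all genes that were higher. Myt1 and Emid1 fell, 2 of 10 called, beside 5.6% of all genes that fell and 9.06% called in either direction. The median over all genes was -0.06, -0.04 and -0.09 in the 3 comparisons, and the comparisons share arrays, so their values are given side by side and not as separate support for each other.

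**Figure D1:**
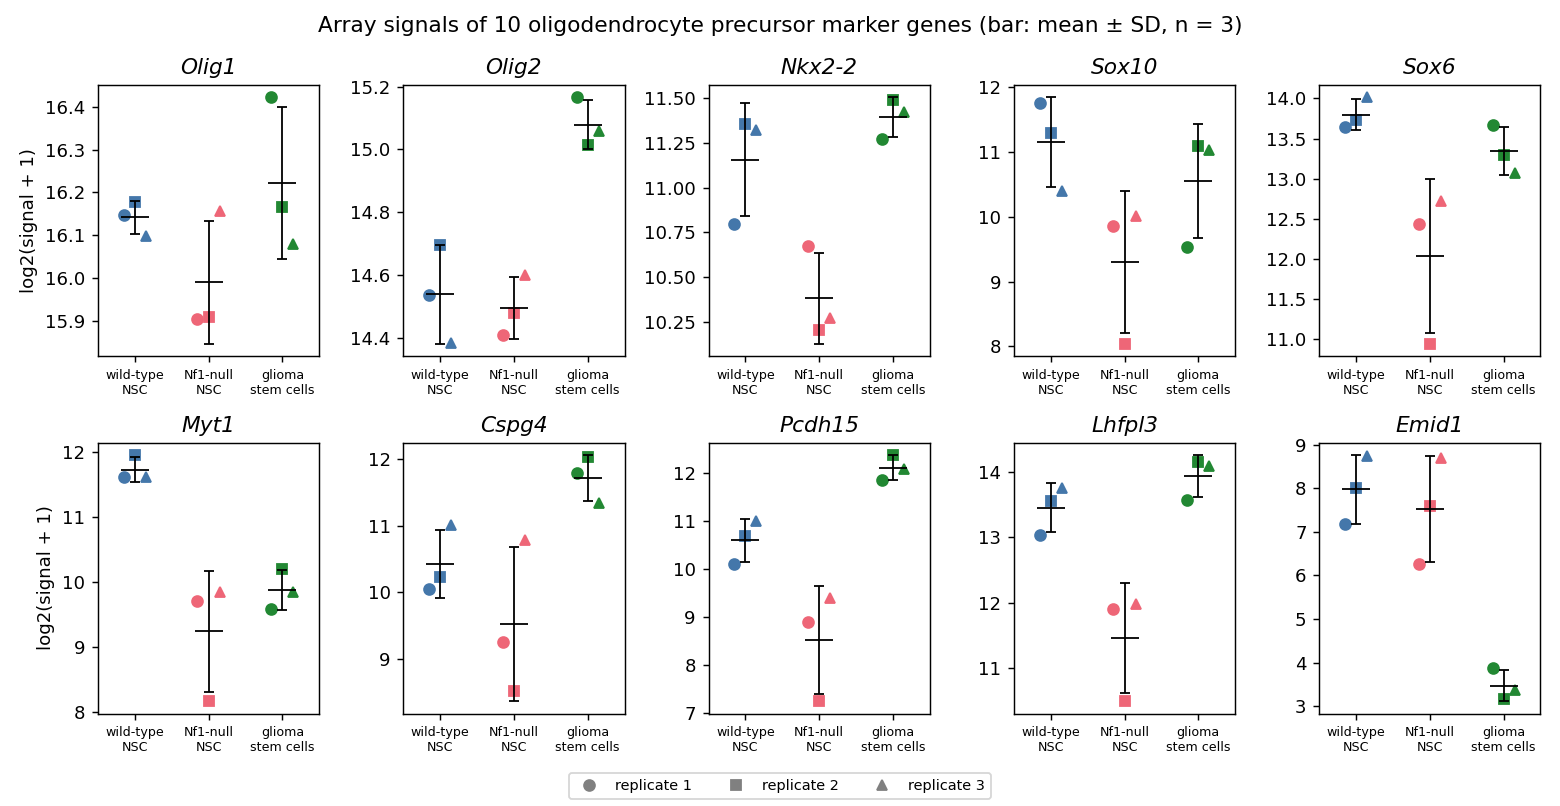
Signals of the 10 marker genes on 9 arrays as log2(signal + 1), 1 panel per gene with its own vertical scale, by group. Symbols are replicates and the bar is the mean ± SD of 3 arrays. The Nf1-null arrays of Nkx2-2, Sox6, Pcdh15 and Lhfpl3 lie below the other 6, and the glioma stem cell arrays of Emid1 lie below the other 6.

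Among the transcription factors, Olig1 and Olig2 were bright on every array. Olig1 signals were 72618, 74071 and 70189 on the wild-type arrays, 61379.5, 61580 and 72997 on the Nf1-null arrays, and 87782, 73500.1 and 69257 on the glioma stem cell arrays. The 3 groups overlapped, and the log2 differences were -0.15 (SE 0.15) for Nf1-null against wild-type NSC, 0.23 for glioma stem cells against Nf1-null NSC and 0.08 for glioma stem cells against wild-type NSC. The 95% interval of the last one ran from -0.27 to 0.44. Olig2, the partner gene that directs progenitors into the lineage, had signals of 23759.6, 26541 and 21358 on the wild-type arrays, 21742, 22816 and 24846 on the Nf1-null arrays, and 36775, 33061 and 34120.4 on the glioma stem cell arrays. All 3 glioma stem cell arrays lay above the 6 NSC arrays, which overlapped each other. The log2 difference was 0.58 (SE 0.15, adjusted p = 0.107) from Nf1-null NSC and 0.54 (adjusted p = 0.0598) from wild-type NSC, neither of which passed over all genes. Under 4 of 24 other settings the first of these passed, and under 8 of 24 the second.

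Nkx2-2, a homeodomain factor of ventral progenitors that promotes oligodendrocyte differentiation, had signals of 1774, 2623 and 2556 on the wild-type arrays, 1631, 1179 and 1233 on the Nf1-null arrays, and 2476, 2874 and 2745 on the glioma stem cell arrays. The Nf1-null arrays were below all others, while wild-type and glioma stem cell arrays overlapped. The log2 differences were -0.78 (SE 0.21, adjusted p = 0.174), 1.01 (adjusted p = 0.0685) and 0.24 (adjusted p = 0.525) in the order Nf1-null against wild-type NSC, glioma stem cells against Nf1-null NSC, and glioma stem cells against wild-type NSC. Sox10, which drives myelin genes later in the lineage, had signals of 3479, 2511 and 1352 on the wild-type arrays, 929, 263 and 1037 on the Nf1-null arrays, and 741, 2176 and 2085 on the glioma stem cell arrays. Glioma stem cell array 1 was as low as the Nf1-null arrays, and arrays 2 and 3 were within the wild-type range. For Sox10 these log2 differences were -1.85 (SE 0.67, adjusted p = 0.231), 1.24 (adjusted p = 0.408) and -0.60 (adjusted p = 0.620).

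Sox6, a SoxD factor that keeps precursors from differentiating early, had signals of 12829, 13603 and 16559 on the wild-type arrays, 5556, 1966 and 6768 on the Nf1-null arrays, and 12998, 10017 and 8627 on the glioma stem cell arrays. Its Nf1-null arrays were again below the other 6. The log2 differences were -1.76 (SE 0.44, adjusted p = 0.160) for Nf1-null against wild-type NSC, 1.31 (adjusted p = 0.202) for glioma stem cells against Nf1-null NSC and -0.45 (adjusted p = 0.567) for glioma stem cells against wild-type NSC. Myt1, a zinc-finger factor of neural progenitors and precursors, had signals of 3146.5, 3976 and 3129 on the wild-type arrays, 835, 285 and 919 on the Nf1-null arrays, and 768, 1172.5 and 916 on the glioma stem cell arrays. The wild-type arrays stood above all others, and the Nf1-null and glioma stem cell arrays overlapped. From wild-type NSC to glioma stem cells Myt1 fell 3.62-fold (log2 difference -1.85, SE 0.44, adjusted p = 0.0412). In Nf1-null NSC the difference from wild-type was larger, -2.49, with an adjusted p of 0.0900, and from Nf1-null NSC to glioma stem cells it was 0.64 (adjusted p = 0.523).

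Of the surface genes, Cspg4 had signals of 1054, 1200 and 2064 on the wild-type arrays, 610.5, 364 and 1767 on the Nf1-null arrays, and 3534, 4174 and 2605 on the glioma stem cell arrays. The glioma stem cell arrays were above the other 6, and the NSC groups overlapped through Nf1-null array 3. The log2 differences were -0.91 (SE 0.56, adjusted p = 0.458), 2.20 (adjusted p = 0.113) and 1.29 (adjusted p = 0.194) in the order given above. Pcdh15, a protocadherin known from the tip links of sensory hair cells, had signals of 1099.6, 1662 and 2045 on the wild-type arrays, 479, 152 and 674 on the Nf1-null arrays, and 3729, 5338 and 4365 on the glioma stem cell arrays. No 2 of its groups overlapped at its brightest probe set, with Nf1-null lowest and glioma stem cells highest. From Nf1-null NSC to glioma stem cells Pcdh15 rose 12.1-fold (log2 difference 3.59, SE 0.53, adjusted p = 0.0281), and with the block the adjusted p was 0.0552, past the threshold no longer. Against wild-type NSC the log2 difference was -2.08 (adjusted p = 0.164) for Nf1-null NSC and 1.51 (adjusted p = 0.119) for glioma stem cells.

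Lhfpl3, which encodes a tetraspan membrane protein of the LHFPL family, had signals of 8381, 12090.1 and 13869 on the wild-type arrays, 3844, 1442.5 and 4051 on the Nf1-null arrays, and 12122, 18185 and 17537 on the glioma stem cell arrays. The Nf1-null arrays were below the other 6, which overlapped. Lhfpl3 rose 5.56-fold from Nf1-null NSC to glioma stem cells (log2 difference 2.48, SE 0.42, adjusted p = 0.0391), a call that the block ended (adjusted p = 0.0728). Against wild-type NSC its log2 difference was -1.99 (adjusted p = 0.127) in Nf1-null NSC and 0.49 (adjusted p = 0.516) in glioma stem cells. Emid1, which encodes a secreted protein with an EMI domain and collagen repeats, had signals of 143, 255.5 and 429 on the wild-type arrays, 75.7, 192 and 412 on the Nf1-null arrays, and 13.6, 8.0 and 9.4 on the glioma stem cell arrays. It was the 1 member with all glioma stem cell arrays below the other 6, and the NSC groups overlapped. Emid1 fell 16.5-fold from Nf1-null NSC (log2 difference -4.04, SE 0.64, adjusted p = 0.0335) and 22.7-fold from wild-type NSC (log2 difference -4.50, adjusted p = 0.0128). The signals of the glioma stem cells were far under the array medians, and no detection calls were used here. Arrays 1 and 2 of both NSC groups were also below their medians for Emid1, and array 3 of each was above. The size of these folds thus rests on dim values. With a pseudocount of 16 in place of 1 the differences were -2.94 from Nf1-null NSC and -3.35 from wild-type NSC.

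The 3 genes called between glioma stem cells and Nf1-null NSC are shown by the 250 bases before their start sites, from RefSeq (GRCm38.p6), because Pcdh15 and Lhfpl3 moved together and Emid1 moved the other way. The windows are chr10:73821617-73821866 on the plus strand for Pcdh15, chr5:22745804-22746053 on the plus strand for Lhfpl3 and chr11:5152231-5152480 on the minus strand for Emid1, the more upstream of 2 Emid1 starts in the table. Capitals mark E-boxes, CANNTG, the pattern of basic helix-loop-helix factors, which reads the same on both strands.
Pcdh15: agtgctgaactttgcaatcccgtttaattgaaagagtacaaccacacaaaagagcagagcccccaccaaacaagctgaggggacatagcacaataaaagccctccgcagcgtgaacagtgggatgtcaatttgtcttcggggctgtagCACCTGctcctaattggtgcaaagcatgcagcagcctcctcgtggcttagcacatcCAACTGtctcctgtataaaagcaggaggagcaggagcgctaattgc
Lhfpl3: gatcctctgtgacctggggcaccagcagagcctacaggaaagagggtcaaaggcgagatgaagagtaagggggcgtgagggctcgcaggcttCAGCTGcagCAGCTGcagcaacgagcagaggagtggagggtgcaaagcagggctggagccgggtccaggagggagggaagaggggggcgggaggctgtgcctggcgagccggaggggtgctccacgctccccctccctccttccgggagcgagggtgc
Emid1: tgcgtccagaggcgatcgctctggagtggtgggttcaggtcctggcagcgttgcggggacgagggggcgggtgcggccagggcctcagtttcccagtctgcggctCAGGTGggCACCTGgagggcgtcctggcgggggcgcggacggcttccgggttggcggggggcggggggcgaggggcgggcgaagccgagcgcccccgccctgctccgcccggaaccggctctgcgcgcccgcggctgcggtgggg
Each window held 2 matches, CACCTG and CAACTG in Pcdh15, CAGCTG at both places in Lhfpl3, and CAGGTG and CACCTG in Emid1. Of 32851 promoter windows of the same length 66.2% held at least 1 match, so the pattern is common. The letters ACAAT, the core of SOX sites searched on both strands, occurred at 1 place in Pcdh15 and at 0 in Lhfpl3 and Emid1, and 27.7% of all windows held them. Of the 10 members 8 were matched in the promoter table.

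Within the Nf1-null group the members' levels differed from array to array. Array 2 was the lowest of its group for 7 members (Cspg4, Sox10, Nkx2-2, Pcdh15, Lhfpl3, Sox6 and Myt1) and array 3 the highest for 9. Without Nf1-null array 2 the median difference of the 10 members was -0.95 from wild-type NSC and, for glioma stem cells against Nf1-null NSC, 0.69. Groups that did not overlap were counted as well. Nf1-null arrays were all below the wild-type arrays for 6 members, against 14.1% of all genes. Glioma stem cell arrays were all above the Nf1-null arrays for 6 members and all below for 1, against 9.24% and 12.7% of all genes. They were all above the wild-type arrays for 3 and all below for 2, against 13.9% and 20.9%. The Nf1-null arrays were below all 6 others for 4 members (Nkx2-2, Pcdh15, Lhfpl3 and Sox6), against 2.36% of genes, and the glioma stem cell arrays above all 6 others for 3 (Cspg4, Olig2 and Pcdh15), against 4.91%. Emid1 was the 1 member below the other 6 in glioma stem cells, against 7.83% of genes, and Myt1 the 1 member above the other 6 in wild-type NSC, against 8.57%. In same-numbered NSC arrays the Nf1-null signal was the lower one in all 3 pairs for 8 members, all but Olig1 and Olig2, against 27.7% of genes.

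**Figure D2:**
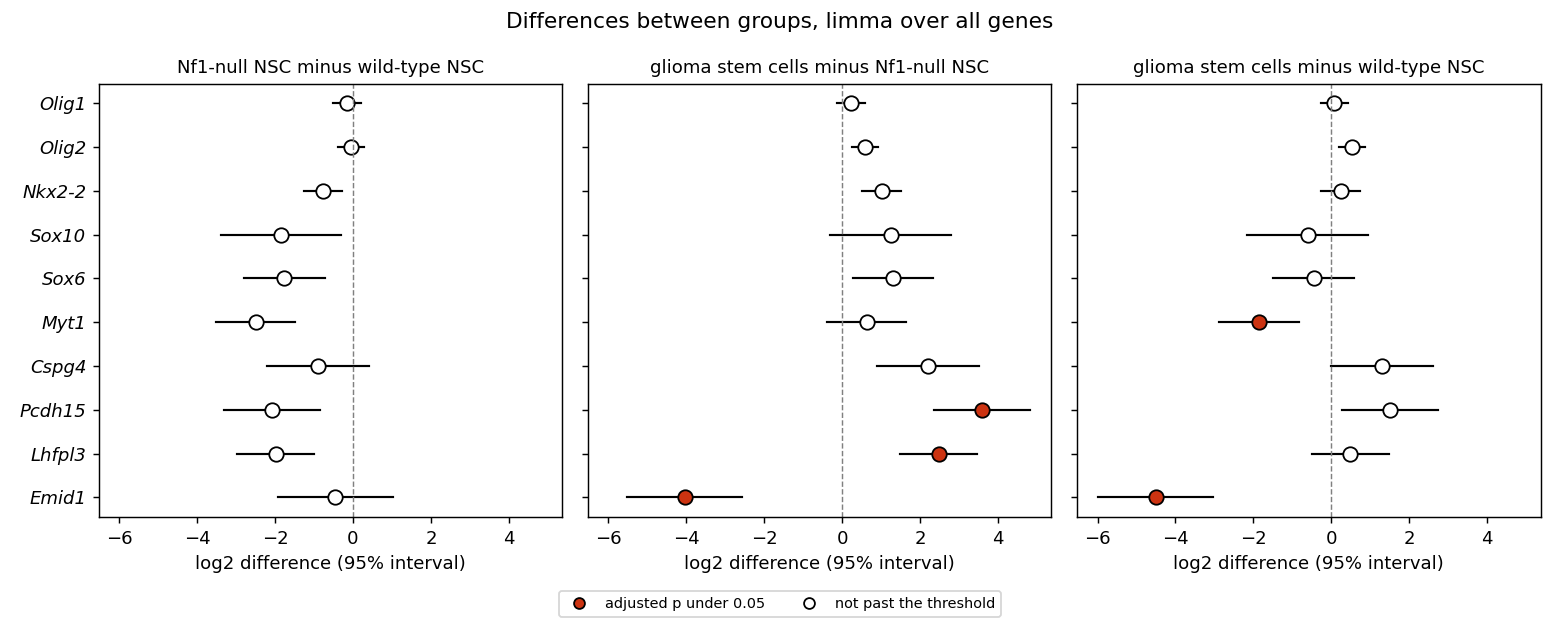
Log2 differences between group means (points) with 95% intervals from limma (lines) for the 10 genes in the 3 comparisons. Filled points had an adjusted p under 0.05 over all genes in the fit without a replicate block. No point is filled between the NSC groups, Pcdh15, Lhfpl3 and Emid1 are filled between glioma stem cells and Nf1-null NSC, and Myt1 and Emid1 in the comparison of glioma stem cells with wild-type cells.

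Which members passed depended on the genes tested and on the variance model. Over the brighter 50% of genes, which leave out Emid1, 4 members fell between the NSC groups (Lhfpl3, Myt1, Pcdh15 and Sox6). Of those genes 2.09% fell and 4.38% were called in either direction. On the same basis Cspg4, Nkx2-2, Olig2, Pcdh15 and Lhfpl3, 5 members, rose from Nf1-null NSC to glioma stem cells. In that comparison 2.9% of those genes rose and 6.67% were called in either direction. From wild-type NSC to glioma stem cells Olig2 and Pcdh15 rose and Myt1 fell, 3 members beside 27.2%. With a mean-variance trend over all genes 2, 6 and 3 members passed in the 3 comparisons, beside 1.81%, 4.05% and 14.7% of genes.

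Single arrays also ended calls. For Pcdh15 the adjusted p was 0.0557 without wild-type array 2, 0.0714 without Nf1-null array 1, 0.107 without glioma stem cell array 2 and 0.0949 without glioma stem cell array 3. Lhfpl3 missed the threshold without wild-type array 1 (0.0653), 2 (0.0754) or 3 (0.0650), Nf1-null array 1 (0.0800) or 3 (0.0707), or glioma stem cell array 2 (0.145) or 3 (0.135). The Emid1 fall from Nf1-null NSC had an adjusted p of 0.0643 without wild-type array 2, 0.0912 and 0.0697 without Nf1-null arrays 2 and 3, and 0.122 and 0.110 without glioma stem cell arrays 2 and 3. The Emid1 fall from wild-type NSC had 0.0532 without wild-type array 2, 0.0552 without glioma stem cell array 2 and 0.0509 without array 3. Myt1 against wild-type NSC had 0.0874, 0.133 and 0.0933 without wild-type arrays 1, 2 and 3, and 0.0536 without Nf1-null array 1. Without glioma stem cell arrays 1, 2 and 3 it had 0.0862, 0.101 and 0.117. Each of these differences kept its sign.

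The other probe sets of the members mostly had the sign of the brightest one. All 20 were negative between Nf1-null and wild-type NSC, with 0 called beside 0% of all probe sets. Between glioma stem cells and Nf1-null NSC 19 were positive and 1, that of Emid1, was negative. The brightest probe set of Pcdh15 rose and that of Emid1 fell, 2 of 20 called beside 0.722% of all probe sets, and with the block 0 of 20 was called. Against wild-type NSC 11 were positive and 9 negative, and that of Emid1 fell, beside 4.69%. The 3 probe sets of Pcdh15 had log2 differences of 2.08, 3.12 and 3.59 between glioma stem cells and Nf1-null NSC, and the 2 of Lhfpl3 had 2.18 and 2.48. A dimmer probe set of Sox10 had 0.08 against wild-type NSC while the other 2 Sox10 probe sets had -0.60 and -1.37, so the probe sets of Sox10 did not give 1 direction there. The second probe set of Cspg4 had 1.53 against Nf1-null NSC and 0.98 against wild-type NSC. Sox6 was measured by 4 probe sets, which ranged from -1.98 to -0.58 between Nf1-null and wild-type NSC. Some groups that were apart at the brightest probe set overlapped at a dimmer one. At a dimmer probe set of Pcdh15 the wild-type arrays overlapped both other groups, and at that of Myt1 they overlapped the glioma stem cell arrays. At a dimmer probe set of Sox6 the Nf1-null arrays overlapped both other groups.

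**Figure D3:**
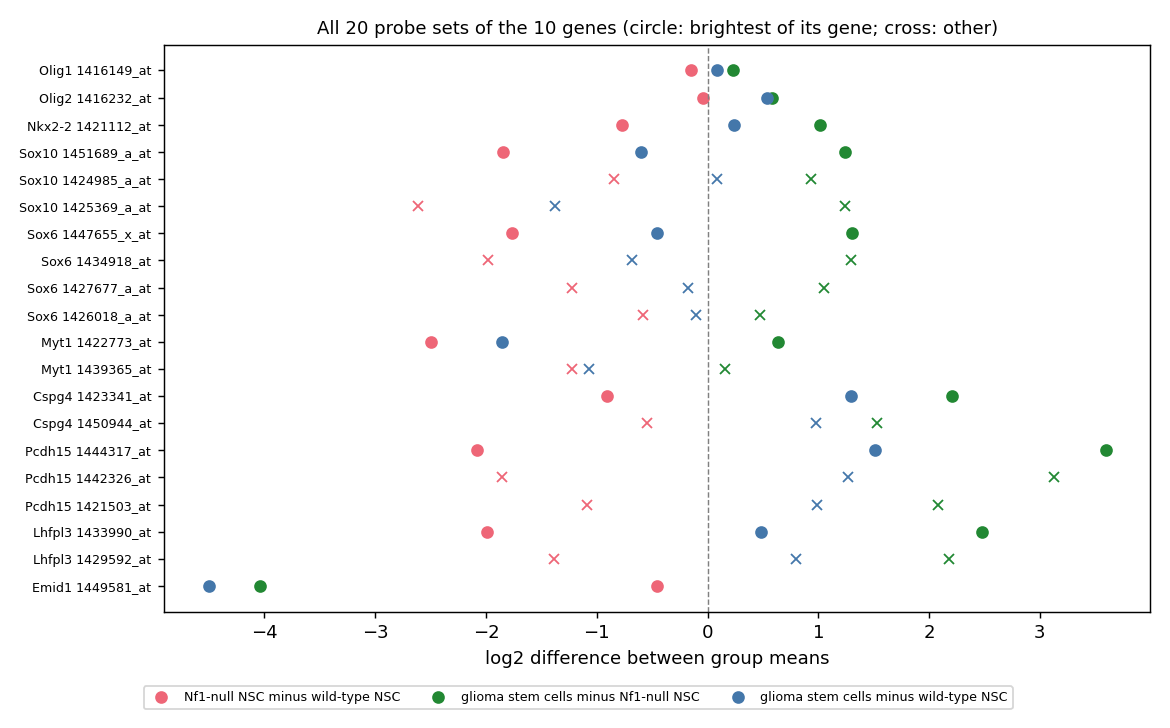
Log2 differences between group means for all 20 probe sets of the 10 genes, coloured by comparison; circles are the brightest probe set of a gene and crosses the others. Probe sets of a gene lie on the same side of 0 except for Sox10 in the comparison of glioma stem cells with wild-type cells.

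Over the 9 arrays Pcdh15 and Lhfpl3 were most alike among the members, with a Pearson correlation of 0.97, followed by Nkx2-2 with Lhfpl3 at 0.94 and Cspg4 with Pcdh15 at 0.93. Of the 36 pairs without Emid1 35 were positive, with a median of 0.68, and Olig2 with Myt1 was negative at -0.16. Emid1 correlated at -0.85 with Olig2 and positively with Myt1 alone, at 0.30. These values describe 9 arrays in 3 groups, share each array's scaling and include the differences between groups. Outside the list, among 8849 genes of at least median brightness, the closest to the mean scaled pattern of the 10 members were Adgrl3 (0.98), Lrrc4c (0.98), Lnx1 (0.97), Cyp2j9 (0.97) and Alcam (0.97). Adgrl3 is an adhesion receptor, Lrrc4c a synaptic adhesion protein and Alcam a cell adhesion molecule. Lnx1 and Cyp2j9 are not described here, and a shared function of the 5 was not tested. The pattern over the same arrays chose these 5 genes, so their differences are a description with no test. From Nf1-null NSC to glioma stem cells the fold was 6.58 for Alcam, 4.04 for Lrrc4c, 3.02 for Cyp2j9, 2.68 for Lnx1 and 1.82 for Adgrl3.

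Of 20 other listed precursor markers 18 were measured. Between Nf1-null and wild-type NSC 18 of 18 were negative, beside 55.5% of all genes, with a median of -0.85. Of the 18, 0 were called, beside 0% of all genes. Between glioma stem cells and Nf1-null NSC 15 were positive and 3 negative, beside 46.8% of all genes positive, with a median of 0.44. Again 0 were called, beside 1.75% of all genes. Against wild-type NSC 12 of 18 were negative in glioma stem cells, beside 56.1% of all genes, with a median of -0.48. Ednrb, an endothelin receptor, fell 3.95-fold (adjusted p = 0.0227), 1 of 18 called, beside 9.06% of all genes. Its call was lost without any 1 of the 3 wild-type arrays or glioma stem cell arrays 2 and 3, with an adjusted p of up to 0.0857. Pdgfra, the PDGF receptor that defines these precursors, had signals of 13363, 13124 and 8946 on the wild-type arrays, 2673, 457 and 3305 on the Nf1-null arrays, and 2663, 14127 and 7731 on the glioma stem cell arrays. Glioma stem cell array 1 was at the Nf1-null level of Pdgfra, as it was for Sox10. Gpr17, a receptor of committed precursors, had signals of 9899.8, 14302 and 30598 on the wild-type arrays, 489, 20.1 and 2432 on the Nf1-null arrays, and 495, 1066 and 2326 on the glioma stem cell arrays. The wild-type arrays were above all others for Gpr17, and its difference of -3.93 (SE 1.57, adjusted p = 0.163) from wild-type NSC to glioma stem cells did not pass.

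Of 24 measured of 26 listed regulators of the lineage, 18 were lower on average in the glioma stem cells than in wild-type NSC, beside 56.1% of all genes. The test was passed by 7 of the 24, beside 9.06% of all genes. Hes1, a Notch effector, rose 1.84-fold (adjusted p = 0.0367). The 6 that fell were Id4, a helix-loop-helix inhibitor of Olig factors (9.62-fold), the Hedgehog effectors Gli1 (5.31-fold) and Gli2 (3.43-fold), Sirt2, a deacetylase (2.61-fold), the Wnt effector Tcf7l2 (1.60-fold) and Sox9, a glial determinant (2.59-fold). The adjusted p-values lay between 0.0087 and 0.0459, and Tcf7l2 missed the threshold under quantile normalization and both Tcf7l2 and Sox9 under the shift to 1 median. None of the 24 passed in the other comparisons, whose medians were -0.28 and -0.29. Gli1 was dim, at 156.3 to 177.3 on the wild-type arrays and 12.1 to 62.9 on the glioma stem cell arrays, so the size of its fold rests on values below the array medians. Id4 alone of the 7 stayed called with each of the 9 arrays left out in turn. Gli2 lost its call without wild-type array 2 or 3 or glioma stem cell array 2 or 3, and the other 5 were lost under 6 to 8 of the 9 omissions. Among 20 measured relatives of the members, Lhfp, of the same family as Lhfpl3, fell 4.27-fold against Nf1-null NSC (adjusted p = 0.0215) and 5.51-fold against wild-type NSC (adjusted p = 0.0082). Lhfpl4 fell 1.83-fold against wild-type NSC (adjusted p = 0.0322), as did Sox9, and both missed the threshold under the shift to 1 median. The call of Lhfp against Nf1-null NSC was lost without any 1 of the Nf1-null arrays or glioma stem cell arrays 2 and 3 (adjusted p up to 0.0881), and that against wild-type NSC was kept under all 9 omissions. Lhfpl4 stayed called under 2 of the 9, without Nf1-null array 2 or 3. Of these 20 relatives 1 fell against Nf1-null NSC and 3 against wild-type NSC, beside 1.08% and 5.6% of all genes, and 4 also stand in another list.

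Some markers of mature oligodendrocytes and astrocytes passed the test in comparisons with the glioma stem cells, and none between the NSC groups. Of 12 measured mature oligodendrocyte genes Bcas1, a marker of newly forming oligodendrocytes, rose 6.73-fold from Nf1-null NSC to glioma stem cells (adjusted p = 0.0327), and Opalin, a myelin membrane protein, fell 2.91-fold (adjusted p = 0.0396) and missed the threshold under quantile normalization and with the block (0.0802). So 1 of the 12 rose and 1 fell there, beside 0.671% and 1.08% of all genes, and none passed in the other comparisons. By sign, 8 of the 12 were positive and 4 negative there, with a median of 0.97, beside 46.8% of all genes positive. Between the NSC groups 7 were negative and 5 positive, with a median of -0.60. Glioma stem cells against wild-type NSC had 6 positive and 6 negative, with a median of 0.27. Bcas1 stayed called under 3 of the 9 omissions of an array, those of wild-type arrays 1 and 3 and glioma stem cell array 1. Opalin stayed called under 1, that of glioma stem cell array 1. Mbp, a major myelin protein, had signals of 2008.8, 495.4 and 6599.4 on the wild-type arrays, 376.5, 189.2 and 297.4 on the Nf1-null arrays, and 2601.3, 29057.3 and 65239.2 on the glioma stem cell arrays, and did not pass in any comparison. The summed signal of the 12 ranged from 56215 to 109070 on the wild-type arrays, from 24264 to 53934 on the Nf1-null arrays and from 55057 to 132010 on the glioma stem cell arrays, where Mbp made up much of the difference between arrays. All 10 astrocyte genes were negative in Nf1-null against wild-type NSC, beside 55.5% of all genes, with a median of -1.21 and 0 called. In glioma stem cells Aldh1l1 (90.7-fold), Aqp4 (33.3-fold) and Gja1 (5.46-fold) fell from Nf1-null NSC, 3 of 10 beside 1.08% of all genes. From wild-type NSC Aldh1l1, Aqp4, Gja1, Fgfr3 and Slc1a3 fell, by 101-fold, 154-fold, 9.40-fold, 14.2-fold and 2.21-fold, 5 of 10 beside 5.6% of all genes. Slc1a3 missed the threshold under the shift to 1 median. Aldh1l1 kept both calls and Aqp4 and Gja1 kept that against wild-type NSC under all 9 omissions of an array. Against Nf1-null NSC, Aqp4 was lost without Nf1-null array 1 or 3 or glioma stem cell array 2 or 3. Gja1 against Nf1-null NSC (adjusted p = 0.0520 with the block), and Fgfr3 and Slc1a3 against wild-type NSC, stayed called without glioma stem cell array 1 alone. Aqp4 signals of 66.2 to 258.2 on the glioma stem cell arrays were below the array medians, so its folds rest on dim values. By sign, 7 of the 10 were negative and 3 positive against Nf1-null NSC, with a median of -1.51. Against wild-type NSC 9 were negative and 1 positive, with a median of -2.76. Of all genes 53.2% and 56.1% were negative. Slc1a2 and Aldoc were positive against Nf1-null NSC, where their groups overlapped, and negative against wild-type NSC. S100b, a calcium-binding protein of astrocytes that lineage cells can also express, was positive in both. Its signals were 4451.4 to 11308.3 on the wild-type arrays and 3070.8 to 10179.4 on the Nf1-null arrays. On the glioma stem cell arrays S100b signals were 17467.7 to 34245.9. Its differences of 2.46 from Nf1-null NSC (adjusted p = 0.0809) and 1.95 from wild-type NSC (adjusted p = 0.0656) did not pass, though the glioma stem cell arrays lay above all NSC arrays. The summed astrocyte signal ranged from 236740 to 291920 on the wild-type arrays, from 112960 to 197020 on the Nf1-null arrays and from 99275 to 133960 on the glioma stem cell arrays, and 0 of its genes was listed at 0. Of 10 neural stem cell genes Sox1 fell 8.22-fold from Nf1-null NSC (adjusted p = 0.0369) and 15.2-fold from wild-type NSC (adjusted p = 0.0099). Its signals on glioma stem cell arrays 2 and 3 (111.4 and 160.1) were below the array medians, so these folds rest in part on dim values. Msi1 (2.18-fold) and Nr2e1 (2.33-fold) fell from wild-type NSC, with Nr2e1 past the threshold under neither scaling alternative. So 1 of 10 fell from Nf1-null NSC and 3 of 10 from wild-type NSC, beside 1.08% and 5.6% of all genes. In sign, 4 of 10 were positive against Nf1-null NSC and 3 of 10 against wild-type NSC. Sox1 against wild-type NSC kept its call under all 9 omissions and Sox1 against Nf1-null NSC under 1, that of glioma stem cell array 1, while Msi1 kept it under 3 and Nr2e1 under 2. Nes, an intermediate filament gene of progenitors, was higher on all 3 glioma stem cell arrays (8931.7 to 11387.8) than on the wild-type arrays (3122.2 to 5325.5), with a difference of 1.48 that did not pass (adjusted p = 0.0558). Summed over the 10 members the signal was 128280 to 138530 on the wild-type arrays, 90238 to 114700 on the Nf1-null arrays and 142270 to 160940 on the glioma stem cell arrays. Olig1 and Olig2 made up 68.5% to 75.1%, 85.3% to 93.5% and 70.8% to 77.4% of that sum in the 3 groups. Their share was largest on the Nf1-null arrays, where the dimmer members added least. The part of these other markers, and of the Actb ratio, in the members' differences was not tested.

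**Figure D4:**
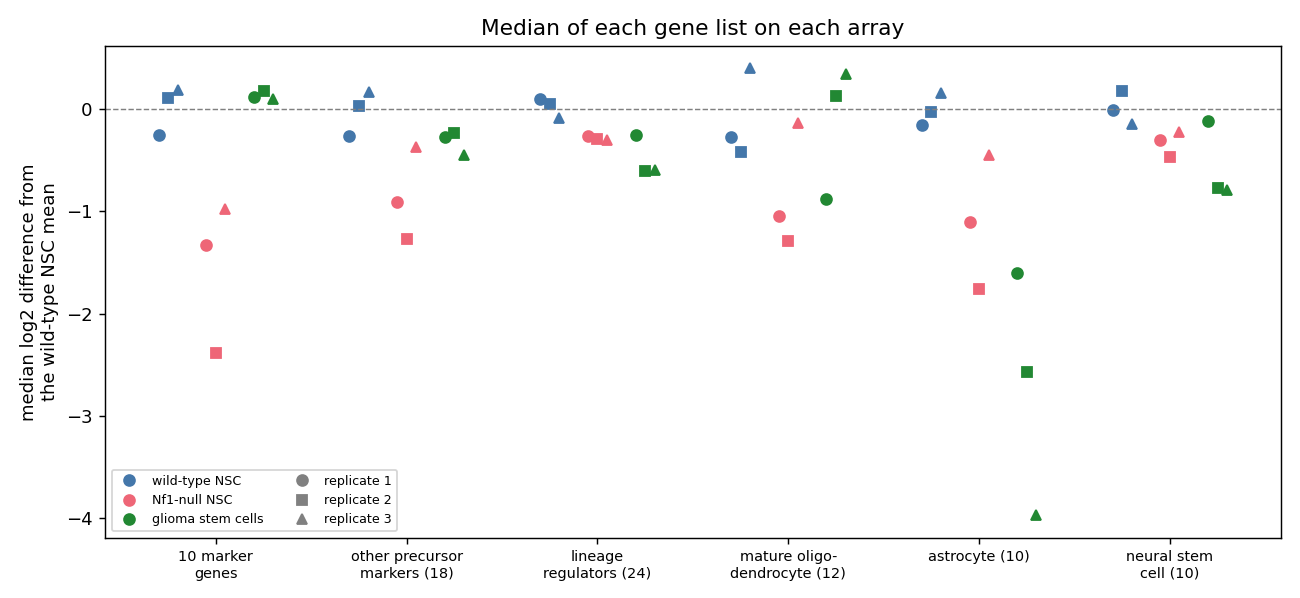
Median log2 difference of each gene list from the mean of wild-type NSC, 1 point per array, with colours for groups and symbols for replicates. The 10 marker genes lie between -2.39 and -0.98 on the Nf1-null arrays and between 0.10 and 0.18 on the glioma stem cell arrays. The other precursor markers lie between -1.27 and -0.37 on the Nf1-null arrays and between -0.45 and -0.23 on the glioma stem cell arrays. The astrocyte list lies between -1.76 and -0.45 on the Nf1-null arrays and between -3.97 and -1.60 on the glioma stem cell arrays.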

How the data were processed

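RNA of 9 cultures was hybridised to Affymetrix Mouse 430 2.0 arrays with 100 ng of RNA each, per the labels. The deposited table by the authors holds intensity values per probe set on a linear scale; the software that made them and the genome build are not given in the sources used here. Of 45101 probe sets 64 were controls, 34945 carried exactly 1 gene symbol and were used; 932 carried several and 9160 none. Values became log2(value + 1), and a fold is the log2 difference raised back to the linear scale. The probe set with the highest mean log2 signal stood for a gene. The first run used the mean linear signal instead. The choice was changed after its results were seen, to match an earlier analysis of these data; it altered the probe set of 166 genes and of 0 members. All 9 arrays entered 1 model of 3 group means in limma 3.58.1 (R 4.3.3), without a mean-variance trend, with 6 residual and 1.63 prior degrees of freedom, with a two-sided test and a threshold of 0.05 after Benjamini-Hochberg adjustment. The number of arrays, 3 per group, limits the precision. The model was also run on simulated data with independent arrays and added differences, and no result of that run is used here. Correlation between same-numbered arrays was not simulated.

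Pairing by replicate number was judged from how deviations from the group means correlated between same-numbered arrays, across the brighter 9097 genes. This gave 0.24 to 0.64 between the NSC groups, 0.11 to 0.30 between Nf1-null NSC and glioma stem cells, and 0.05 to 0.24 between wild-type NSC and glioma stem cells. In the first 2 comparisons every pair exceeded 0.1. The main fit still held no replicate block, so its p-values are unpaired, and the fit with the block is given beside it. Across all genes the ranges were 0.05 to 0.17, 0.01 to 0.08 and 0.001 to 0.03, and none would be paired. The labels state no pairing. Named genes were the 10 members, every gene of the other lists past the threshold (at most 6 per list and comparison), defining markers, and the 5 genes most correlated with the members. The members and lists were chosen with earlier results of these data known. Alternatives were other normalizations, probe set summaries, filters, variance priors, a pseudocount of 16, array weights, the replicate block, fits of 6 arrays and each array left out. Promoters were matched by symbol, and figures were drawn with matplotlib 3.10.9.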

Additional observations from a re-analysis of the deposited data

How the results depend on the processing

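Over 24 other settings (21 for the dim gene Emid1) differences of single members kept their direction except in 5 cases, all of small size. Emid1 (Nf1-null NSC minus wild-type NSC) ranged from -1.05 to 0.17 with each array left out and was positive without Nf1-null array 1. Olig1 (glioma stem cells minus wild-type NSC) ranged from -0.019 to 0.15 with each array left out and was negative without glioma stem cell array 1. Olig2 (Nf1-null NSC minus wild-type NSC) was 0.024 with arrays shifted to 1 median, and ranged from -0.12 to 0.036 with each array left out, positive without wild-type array 2 or Nf1-null array 1. The median of the members stayed between -1.83 and -0.95, between 0.69 and 1.33 and between 0.07 and 0.30 in the 3 comparisons. Counts of called members depended on the variance prior and on the genes tested. Between the NSC groups 0 became 1 without the dimmest 25% of genes, 4 over the brighter 50% of genes and 2 with a mean-variance trend. It became 4 with a trend and robust moderation and 4 with the replicate block over the brighter 50%, and stayed 0 with each array left out. The share of all tested genes called there was 0% in the main fit and 4.38% over the brighter 50%. It was 1.81% with a trend and 11.9% with the block over the brighter 50%. Between glioma stem cells and Nf1-null NSC 3 became 5 over the brighter 50%, 6 with a trend, with or without robust moderation, 5 with the block over the brighter 50%, and 0 with an ordinary linear model or with only the 6 arrays compared. It ranged from 0 to 3 with each array left out. In this comparison the share of all tested genes called was 1.75% in the main fit and 6.67% over the brighter 50%. With a trend it was 4.05%, and with the block over the brighter 50% it was 10.4%. Against wild-type NSC the 2 of glioma stem cells, beside 9.06% of all genes, became 1 with all probe sets tested separately, beside 4.69% of these. The count became 4 with array weights and ranged from 0 to 3 with each array left out. The share of all genes called under array weights and the remaining settings is not given here. The brighter 50% leaves out Emid1 by construction; the cause of the other changes was not tested. With the replicate block over all genes the counts were 0, 1 and 1, beside 0%, 1.06% and 8.44% of all genes. Pcdh15 and Lhfpl3 lost their calls against Nf1-null NSC, and Myt1 (adjusted p = 0.0768) lost its call against wild-type NSC. The called probe sets of members between glioma stem cells and Nf1-null NSC went from 2 to 0 with the block. Wild-type NSC and glioma stem cells share only numbers; 4 of 6 of their arrays correlated best with their own number, against 5 of 6 between Nf1-null NSC and glioma stem cells and 6 of 6 between the NSC groups, where the block over all genes changed no member's call. Of the calls of listed genes that are no members, 8 against Nf1-null NSC became 5 with the block and 21 against wild-type NSC became 13; 1 and 6 of them held with each array left out. Choosing the probe set by mean linear signal, which was run first and replaced by the mean log2 signal after its results were seen, left every member its value and gave 331 and 1658 called genes in place of 319 and 1649 for glioma stem cells against Nf1-null and wild-type NSC. Dim probe sets limit what can be said of Emid1, whose glioma stem cell signals were 13.6 or less.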

Other observations

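Of 8 neuronal genes Tubb3, a neuronal tubulin, rose 4.36-fold from Nf1-null NSC to glioma stem cells (adjusted p = 0.0344, limma; 0.0612 with the replicate block), and Rbfox3 (6.26-fold) and Snap25 (3.48-fold) fell from wild-type NSC to glioma stem cells. So 1 of 8 rose against Nf1-null NSC, beside 0.671% of all genes, and 2 of 8 fell against wild-type NSC, beside 5.6%. Tubb3 stayed called under 2 of the 9 omissions of an array, Rbfox3 under 6 and Snap25 under 4, and all 3 were lost without glioma stem cell array 2 or 3. Rbfox3 (107.8 and 152.2) and Snap25 (258.5 and 174.1) were below the medians of glioma stem cell arrays 2 and 3. The size of their folds thus rests in part on dim values. Of 7 measured Schwann and neural crest genes Cdh19, a cadherin of glia, rose 7.29-fold from wild-type NSC to glioma stem cells (adjusted p = 0.0131; up to 0.0552 without glioma stem cell array 2 or 3). It was 1 of 7 that rose, beside 3.46% of all genes. Its signals were 786, 639 and 1972.5 on the wild-type arrays, 1655, 2034 and 2771.5 on the Nf1-null arrays, and 7181, 7192 and 7455 on the glioma stem cell arrays. None of the 9 pericyte and endothelial genes and none of the 7 microglial genes passed in any comparison. The summed signals of the pericyte and endothelial genes lay between 517 and 944 over the 9 arrays, and those of the microglial genes between 547.5 and 921.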
